A study of Mus musculus with 16 samples.

Results

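Genes of the cell cycle and mitosis were followed in kidney RNA from 16 male mice. The set was a list of 46 gene symbols spanning entry into the cycle, DNA replication, nucleotide supply, the G2 to M transition, the spindle and cytokinesis. All 46 were found in the count table and each had at least 100 counts over the 16 libraries, among 25408 genes that met this minimum. Every mouse was Elmo1 H/H, carrying a version of the engulfment gene Elmo1 with raised expression, on the C57BL/6J background. By the methods all were 16 weeks old. Non-diabetic mice were Ins2 +/+, and diabetic mice were Ins2 Akita/+, whose misfolded insulin impairs the pancreatic beta cells. The labels named 4 groups of 4 libraries, which were non-diabetic untreated (ND_C), non-diabetic with vitamin B12 (ND_B12), diabetic untreated (D_C) and diabetic with vitamin B12 (D_B12). B12 was given in drinking water at a daily 10 mg/kg, starting at 8 weeks of age. It lasted 8 weeks by the methods and 16 weeks by the labels, and the longer time would end after the stated age. Elmo1 H/H was shared by all groups, so its own effect was not measured.

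Cell division is driven by cyclin-dependent kinases that are switched on by cyclins appearing in turn. D and E type cyclins and the E2F factors open the way into S phase, the Mcm helicase is then loaded and copied DNA is made, and Cdk1 with cyclin B starts mitosis once Wee1 kinase no longer holds it back. Most cells of an adult kidney are outside the cycle, and tubule cells can enter it again during growth or after injury. In whole kidney RNA, fewer cycling cells and less RNA per cell cannot be told apart.

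Total counts ran from 65271308 to 91771136 per library, and the common biological coefficient of variation was 0.201, so the spread between mice rather than counting limited most values. Kidney markers were present in all libraries, with a summed level between 12000 and 15300 CPM (counts scaled to the library total). The groups and directions given here are those of the labels. Mean counts that the study tabulates for its groups correspond to other sets of libraries: its untreated diabetic means are those of the libraries labelled D_B12, and its treated diabetic means are those of most libraries labelled D_C. Those means also place ND_C 3, ND_B12 1, ND_B12 4 and D_C 1 apart from the other libraries of their labelled group. They put ND_C 3 and D_C 1 in the study's treated non-diabetic group and ND_B12 1 in its untreated non-diabetic group. ND_B12 4 goes to its treated diabetic group. The diabetes status of D_C 1 and ND_B12 4 thus differs between the labels and those means. By those means 5 libraries fall in the group of their label and 11 in another. Which assignment is right was not tested. Every comparison below rests on the labels, as does the direction of every B12 comparison in diabetic kidneys. Each library name also carries a date whose meaning the labels do not give. ND_B12 2, 3 and 4 and D_C 1 share the date of 28 August, and no date holds libraries of both D_C and D_B12. The ND_B12 libraries carry 21 and 28 August, and the D_B12 libraries carry dates from 9 October to 26 November. ND_C and D_C share no date either. Member counts of the main comparisons are therefore also given without the 4 libraries of 28 August and without the 4 libraries placed apart, and both choices were made after the data were seen.

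The members covered a wide range of levels. Per kilobase of exon sequence, the mean normalized count (count divided by a median-of-ratios size factor) was highest for Ccnd1, the cyclin D1 gene, at 3945. Pcna, the sliding clamp of DNA polymerase, followed at 709. Wee1, the kinase that restrains Cdk1, stood at 173 and Tyms, which makes thymidylate, at 162, while Cdc20, an activator of the anaphase-promoting complex, reached 56.4 and Kif23, a kinesin of the central spindle, 35.9. The lowest member was Bub1, a spindle checkpoint kinase, at 5.76. The level of cyclin D1 thus stood far above those of the genes that act in mitosis. Of the 46 members, 28 overlapped another annotated gene, 19 of them only on the opposite strand, and whether counting used strand is not stated, so their counts may include reads of the neighbour.

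More members passed between the libraries labelled D_B12 and ND_B12 than in any other comparison. There 19 members had an unadjusted p below 0.05 in edgeR's quasi-likelihood test, the source of every p here unless DESeq2 is named, 17 higher and 2 lower in D_B12. That is 41.3% of the members, where 17% of all genes tested passed, for the higher direction 37% against 7.79%, and for the lower direction 4.35% against 9.2%. The median log2 fold change was 0.29 over the members and 0.00 over all genes. After Benjamini-Hochberg adjustment over all 25408 genes, edgeR called only Kif23 among the members, where it called 0.823% of all genes. DESeq2 called 1189 genes, 9 of them members. With the date of the library name as a covariate in edgeR, 3 members passed unadjusted, and 0 members and 29 genes passed after adjustment. The share of all genes at the unadjusted threshold was not computed for that fit. Dates and groups run nearly in the same order, so it cannot tell them apart. On log2 CPM the groups did not overlap for 15 members that were higher and 1 that was lower, against 4.98% and 6.77% of all genes. Without the libraries of 28 August, which leaves ND_B12 1 alone in its group, 6 members passed unadjusted (13% against 11.7% of all genes), and without the 4 libraries placed apart 21 did (45.7% against 15.6%).

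Between untreated kidneys (D_C against ND_C), 5 members passed the unadjusted threshold, 4 higher and 1 lower in D_C, which is 10.9% against 18.6% of all genes (9.31% higher and 9.28% lower). No member passed after adjustment in edgeR, where it called 1.66% of all genes. DESeq2 called 1637 genes, and Cdk20 was the only member among them. On log2 CPM the 2 groups did not overlap for 3 members, Cdk20, Cdt1 and Rrm1, which is 6.52% against 9.45% of all genes. Without D_C 1, 9 members passed the unadjusted threshold (19.6% against 23.2% of all genes). Without the libraries of 28 August 13 did, 11 higher and 2 lower (28.3% against 23%), and without the libraries placed apart 12 did, 10 higher and 2 lower (26.1% against 22.1%). The share of all genes thus rose in these settings too. Averaged over both treatments, 16 members passed unadjusted in the diabetes comparison, 15 higher and 1 lower, which is 34.8% against 19.4% of all genes (8.84% higher and 10.5% lower). Kif23 was called by edgeR after adjustment in this average as well, where 3.02% of all genes were called. DESeq2 called 1837 genes, 8 of them members. The same average had 12 members past the unadjusted threshold without the libraries of 28 August (26.1% against 19.3% of all genes) and 22 without those placed apart (47.8% against 21%).

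For B12 in non-diabetic kidneys (ND_B12 against ND_C), 9 members passed unadjusted and all 9 were lower in ND_B12, which is 19.6% against 7.62% of all genes and, for the lower direction, 3.95% (3.67% for the higher). After adjustment 0 members and 0 of all genes were below 0.05 in edgeR, with 1937 genes at an unadjusted p below 0.05, and DESeq2 called 0 members and 6 genes. Without the libraries of 28 August the 9 became 0 (4.97% of all genes), and without those placed apart 17 passed (37% against 5.6%). Leaving out one library at a time gave between 2 members, without ND_B12 2, and 17, without ND_B12 1. For B12 in diabetic kidneys (D_B12 against D_C), 6 members passed unadjusted, 4 higher and 2 lower, or 13% against 13.6% of all genes (6.44% higher and 7.21% lower). Here too edgeR called 0 members and 0 genes after adjustment, with 3468 genes at an unadjusted p below 0.05, and DESeq2 called 670 genes, among them Cdk20, Mcm4 and Wee1. In this comparison 7 members passed unadjusted without the libraries of 28 August (15.2% against 16% of all genes) and 7 without those placed apart (15.2% against 16.7%). On log2 CPM the groups did not overlap for 4 members in each B12 comparison, or 8.7%. The share of all genes was 4.85% in non-diabetic and 6.6% in diabetic kidneys. The comparisons share libraries: each ND_B12 value enters both the diabetes comparison with B12 and the B12 comparison without diabetes.

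**Figure D1:**
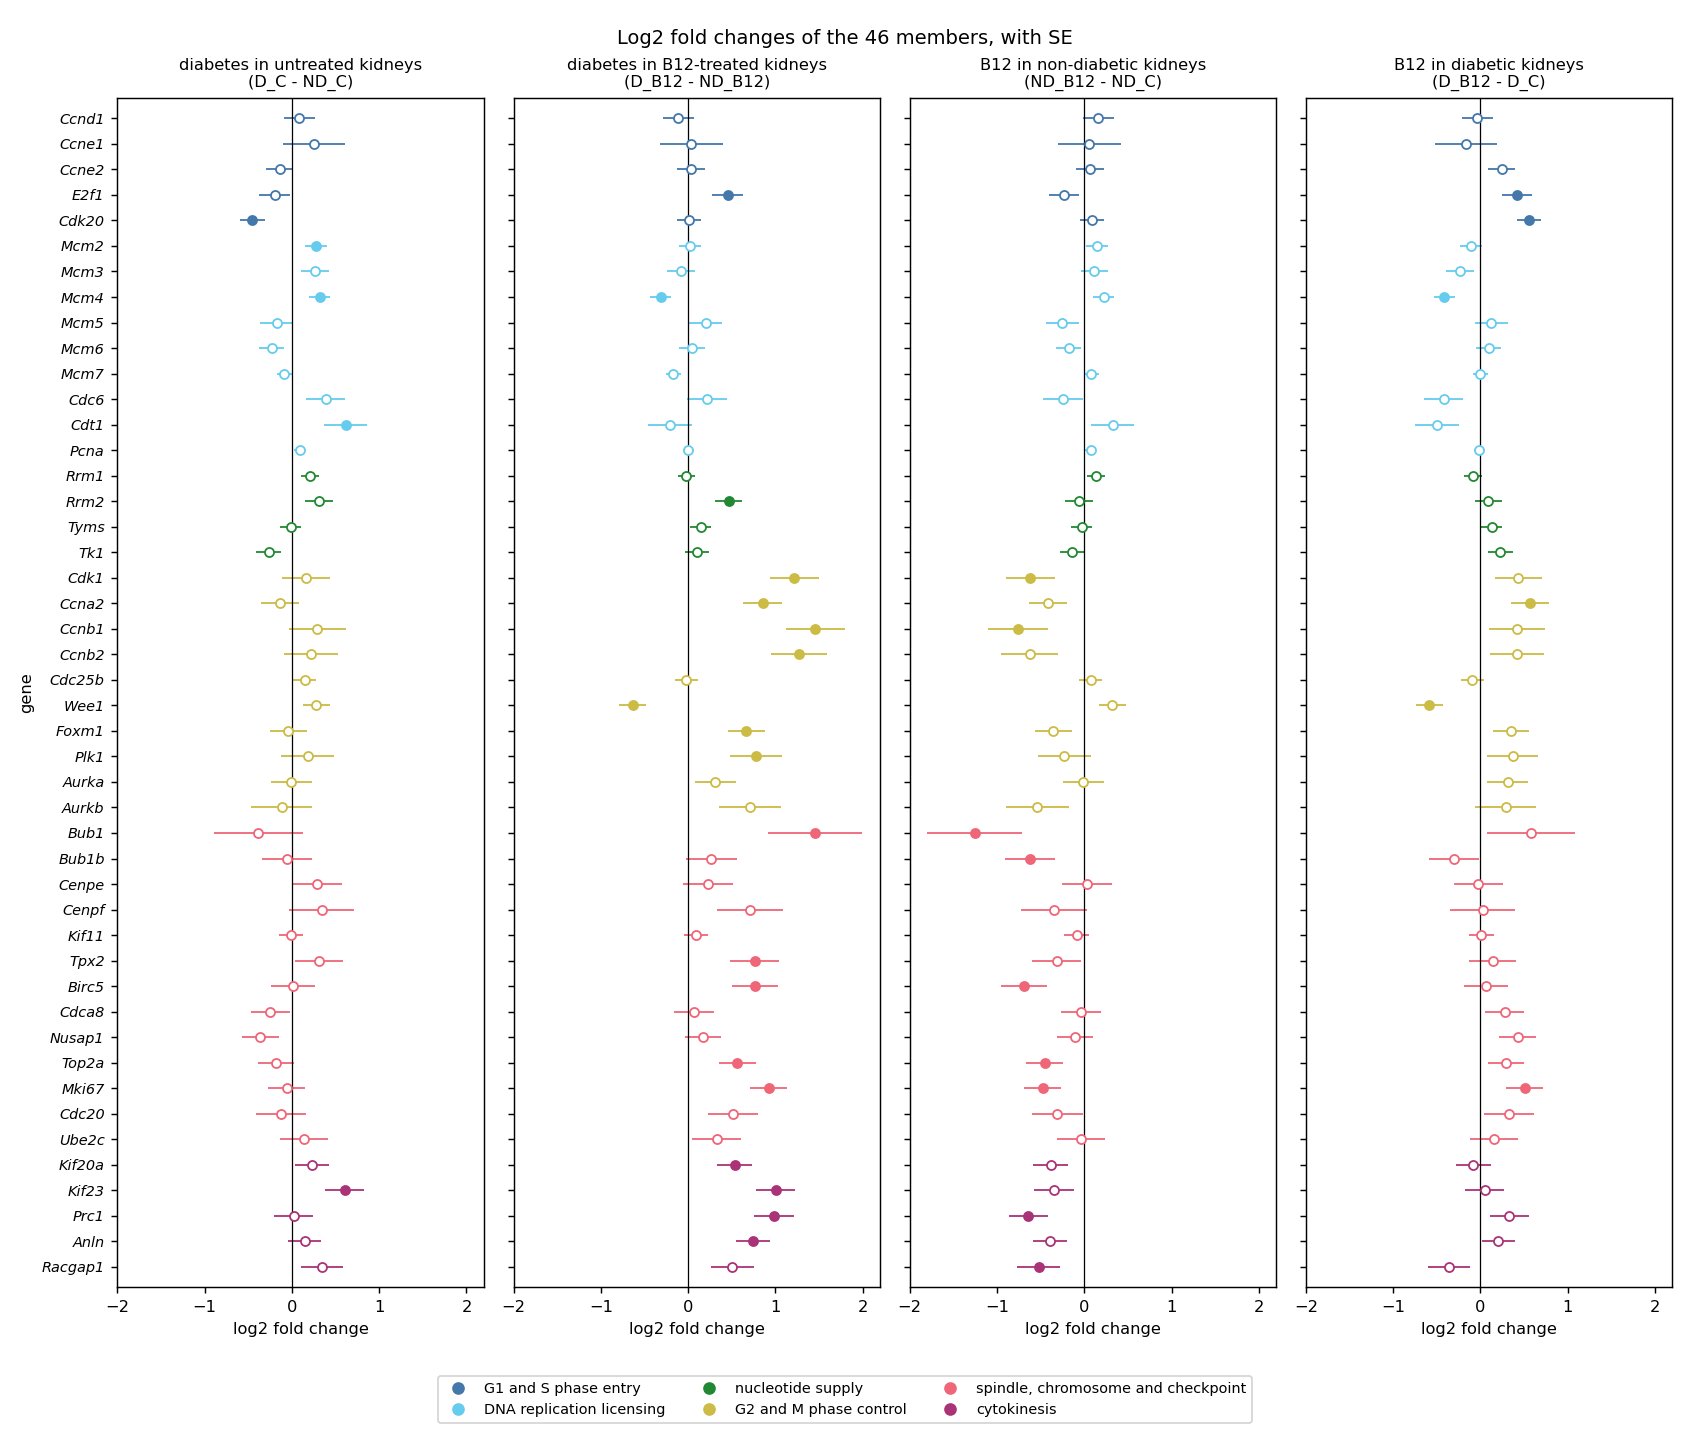
Log2 fold changes of the 46 members in the 4 comparisons of labelled groups, by edgeR with all 16 libraries, one row per gene and coloured by role, with standard errors as bars and filled points at an unadjusted p below 0.05. In the second panel 38 members lie right of 0, in the third 32 lie left of it.

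The interaction asks whether the diabetes difference changed with B12. Of the members 15 passed unadjusted, 12 with a more positive and 3 with a more negative difference in B12-treated kidneys, which is 32.6% against 16.1% of all genes (8.01% more positive and 8.1% more negative). No member and 0 genes were below 0.05 after adjustment in edgeR, with 4093 genes below 0.05 unadjusted, while DESeq2 called 4 members (Mcm4, Ccna2, Wee1 and Mki67) and 943 genes. Without the libraries of 28 August 1 member passed unadjusted (2.17% against 11.5% of all genes), and without those placed apart 17 did (37% against 15%). B12 averaged over both genotypes had 3 members past the unadjusted threshold, Cdk20 higher and Bub1b and Racgap1 lower, or 6.52% against 5.2% of all genes (2.01% higher and 3.19% lower). It had 2 without the libraries of 28 August (4.35% against 5.99% of all genes) and 7 without those placed apart (15.2% against 5.84%). After adjustment 0 members passed in edgeR and 0 in DESeq2, with 1321 genes at an unadjusted p below 0.05 in edgeR.

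The genes that open the cycle showed little common movement. Ccnd1 had a mean normalized count of 17950 ± 3740 in ND_C and 19980 ± 4210 in ND_B12, against 19030 ± 4410 in D_C and 18520 ± 1840 in D_B12 (n = 4 libraries, ± SD), so the groups differed by less than their spread. E2f1, the factor that switches on S phase genes, read 181, 233, 238 and 268 in ND_C and 219, 159, 215 and 188 in ND_B12, against 158, 278, 196 and 171 in D_C and 233, 277, 278 and 283 in D_B12. Every D_B12 library lay above every ND_B12 library, and D_C 2 overlapped D_B12. The log2 fold change of E2f1 was 0.45 ± 0.17 (SE, with adjusted p 0.196) for D_B12 against ND_B12 and 0.42 ± 0.17 (SE, with adjusted p 0.299) for D_B12 against D_C.

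Cdk20, a kinase related to the CDK-activating kinase and also linked to the primary cilium, lies on chromosome 13 from 64580128 to 64589587 of GRCm39 and overlaps 1700015C15Rik on the opposite strand. Its normalized counts were 299, 257, 287 and 279 in ND_C and 336, 330, 310 and 216 in ND_B12. They were 224, 201, 222 and 173 in D_C and 345, 309, 271 and 278 in D_B12. The D_C libraries lay below all ND_C and all D_B12 libraries, and ND_B12 4 fell among them. Against ND_C the log2 fold change of D_C was -0.45 ± 0.14 (SE, with adjusted p 0.0974). The adjusted p was 0.0333 in DESeq2 and 0.0454 without the libraries of 28 August, and 0.0611 without D_C 1. Between D_B12 and D_C its log2 fold change was 0.56 ± 0.14 (SE, with adjusted p 0.110). For diabetes in B12-treated kidneys it was 0.01, and it turned to -0.11 without ND_B12 4 and to -0.16 without the libraries of 28 August. Cdk20 and Wee1 were picked out by the study on these same libraries, so their differences are not independent evidence. Their directions between D_B12 and D_C rest on the labels, and the study's tabulated means put most of these libraries in the opposite diabetic group. On the transcript level 70.4% of the Cdk20 counts were assigned on average to the protein-coding transcript Cdk20-201, but 3.74% in D_C 2, where 73.8% went to the retained-intron transcript Cdk20-202.

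Of the 9 genes that license and run replication, 3 passed unadjusted as higher in D_C than in ND_C, where 9.31% of all genes did, and 1 as lower in D_B12 than in ND_B12, where 9.2% did. They include the Mcm2 to Mcm7 subunits of the replicative helicase and Cdc6 and Cdt1, which load it. Mcm4 read 452, 468, 384 and 516 in ND_C and 448, 479, 612 and 578 in ND_B12, against 586, 495, 559 and 635 in D_C and 458, 461, 392 and 394 in D_B12. The D_B12 libraries lay below all D_C libraries, and the other pairs of groups overlapped. Its log2 change was 0.32 ± 0.12 (SE, with adjusted p 0.167) for D_C against ND_C and -0.31 ± 0.12 (SE, with adjusted p 0.197) for D_B12 against ND_B12. The interaction was -0.64 (SE 0.17) with an edgeR adjusted p of 0.101 and a DESeq2 adjusted p of 0.0187. In edgeR it ran from 0.0553 to 0.202 with single libraries left out. It was highest without the libraries of 28 August, a fit that leaves ND_B12 1 alone in its group.

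Cdt1 read 244, 279, 327 and 383 in ND_C and 241, 393, 410 and 497 in ND_B12, against 448, 452, 535 and 456 in D_C and 260, 203, 500 and 377 in D_B12. Each D_C library exceeded each ND_C library, with a log2 fold change of 0.61 ± 0.25 (SE, with adjusted p 0.197), while the D_B12 libraries ran across the whole range. Mcm2 read 847, 713, 750 and 703 in ND_C and 733, 1130, 860 and 917 in D_C, a log2 fold change of 0.27 ± 0.12 (SE, with adjusted p 0.252) with overlap. For D_C against ND_C the estimates of Mcm5, Mcm6 and Mcm7 (-0.17, -0.23 and -0.09) were below 0 and that of Mcm3 (0.27) above it, and none of these 4 passed unadjusted.

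Among the genes of nucleotide supply, only Rrm2 passed unadjusted in the comparisons of diabetic with non-diabetic kidneys. Rrm2 is the small subunit of ribonucleotide reductase, which is made in S phase. Its normalized counts were 266, 219, 298 and 224 in ND_C and 275, 217, 192 and 275 in ND_B12, against 231, 338, 378 and 300 in D_C and 344, 335, 320 and 328 in D_B12. All D_B12 and 3 of the D_C libraries exceeded every ND library, and D_C 1 was the exception. The log2 fold change averaged over treatments was 0.39 ± 0.11 (SE, with adjusted p 0.0685), and that p was 0.00397 without the libraries placed apart and 0.134 without those of 28 August. The large subunit gene Rrm1 read 857, 864, 886 and 838 in ND_C and 892, 958, 1046 and 1076 in D_C without overlap, a log2 fold change of 0.21 ± 0.10 (SE, with adjusted p 0.294). Without the libraries of 28 August that p was 0.0483. The diabetes average of Rrm1 had adjusted p 0.516 with all libraries and 0.0364 without those of 28 August. Tk1, thymidine kinase, read 624, 734, 804 and 703 in ND_C and 791, 600, 487 and 502 in D_C, and D_C 1 was the highest of its group. Its log2 fold change of -0.27 ± 0.14 (SE, with adjusted p 0.326) became -0.45 (adjusted p 0.0416) without D_C 1. Rrm1, Rrm2 and Tk1 were named after their values were seen. Tyms did not pass unadjusted in any comparison with all libraries.

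**Figure D2:**
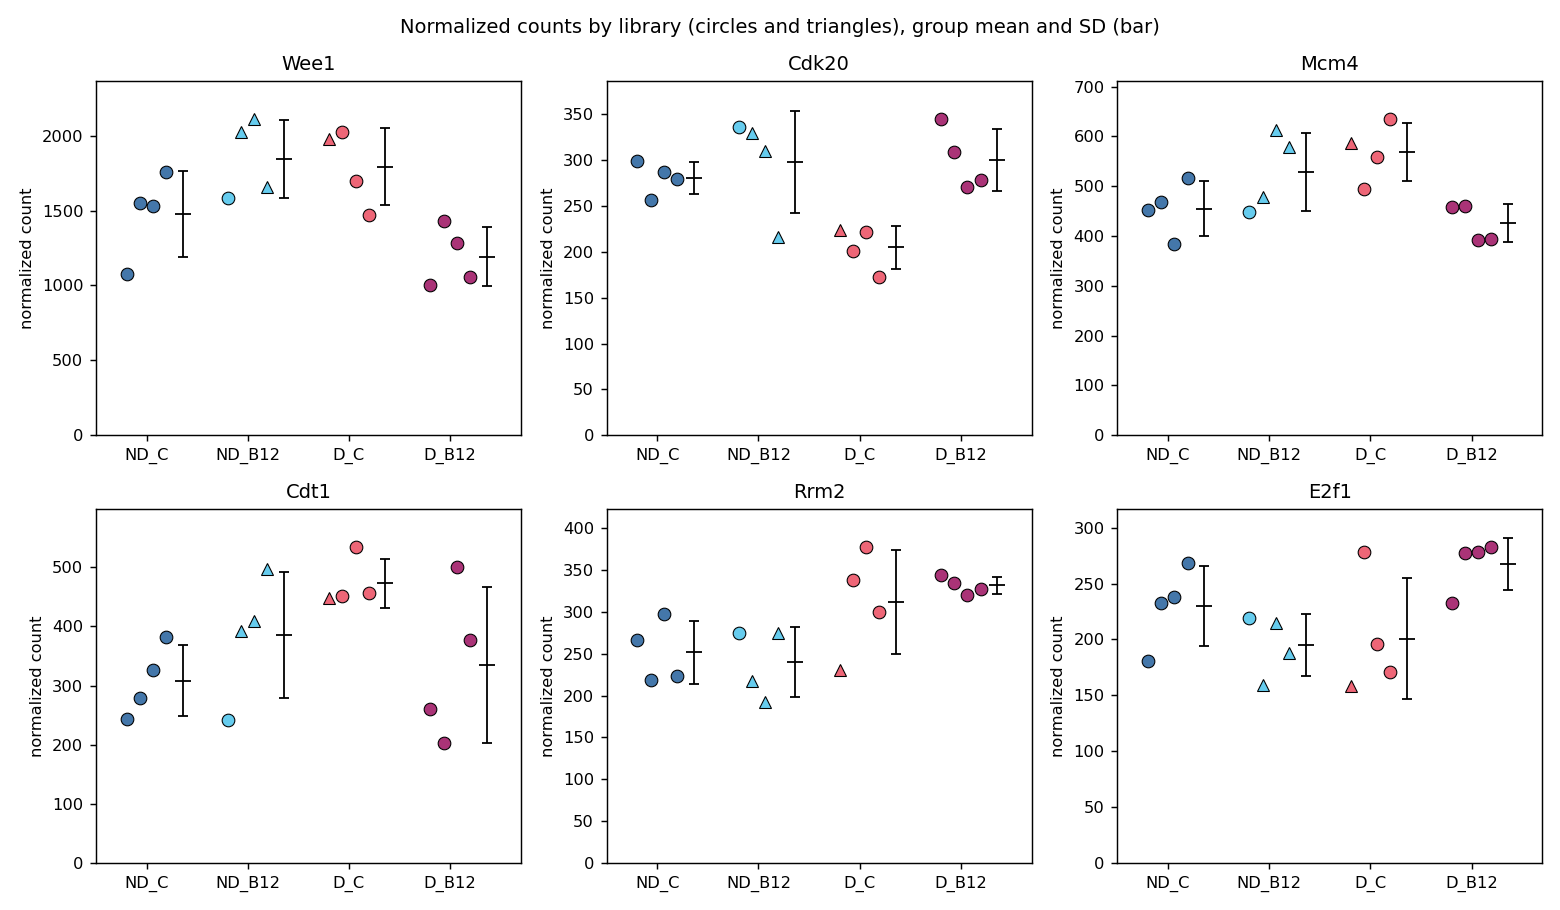
Normalized counts of Wee1, Cdk20, Mcm4, Cdt1, Rrm2 and E2f1 in each library, with the mean and SD of each labelled group of 4 beside the points and triangles for libraries with the date of 28 August. Wee1 and Mcm4 are lowest in D_B12, and Cdk20 is lowest in D_C.

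The 28 genes from G2 to cytokinesis carried most of the difference between D_B12 and ND_B12. Of these, 15 passed unadjusted as higher and Wee1 as lower, where 7.79% and 9.2% of all genes did. By role, 6 of the 10 genes of G2 and M phase control passed as higher, 5 of the 13 spindle, chromosome and checkpoint genes and 4 of the 5 cytokinesis genes. Median log2 fold changes were 0.745, 0.515 and 0.746, against 0.03 for genes of G1 and S phase entry and 0.00 for replication licensing. All 13 spindle genes and all 5 cytokinesis genes had a positive estimate, as did 50.5% of all genes.

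Kif23, a kinesin of the centralspindlin complex that bundles microtubules between separating chromosomes, spans positions 61823187 to 61854074 of chromosome 9, free of any overlapping gene. Its normalized counts were 298, 167, 173 and 295 in ND_C and 229, 175, 155 and 172 in ND_B12, against 242, 358, 425 and 397 in D_C and 302, 336, 356 and 477 in D_B12. Every library labelled diabetic except D_C 1 exceeded all 8 labelled non-diabetic. In log2 units the difference was 1.00 ± 0.22 (SE, with adjusted p 0.0499) between D_B12 and ND_B12, 0.61 ± 0.22 (SE, with adjusted p 0.154) between D_C and ND_C, and 0.80 ± 0.16 (SE, with adjusted p 0.0178) averaged over treatments. The call between D_B12 and ND_B12 was lost in 14 of the 16 fits that left out a single library (adjusted p 0.0294 to 0.162) and in 20 of 26 alternatives. In the average the adjusted p stayed below 0.05 with each library left out in turn. There it was 0.0846 without the libraries of 28 August, and with the label date as a covariate the log2 fold change fell to 0.14 (adjusted p 0.905). Dates and groups run nearly in the same order, so they cannot be told apart by that fit.

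Cdk1, the kinase that starts mitosis, read 61.9, 65.6, 97.4 and 64.3 in ND_C and 55.7, 26.8, 44.8 and 60.0 in ND_B12, against 46.6, 110, 91.5 and 75.6 in D_C and 123, 118, 80.9 and 114 in D_B12. ND_B12 lay below both ND_C and D_B12 without overlap, and D_C 1 fell within ND_B12. On the log2 scale the difference was 1.22 ± 0.28 (SE, with adjusted p 0.0535) between D_B12 and ND_B12 and -0.62 ± 0.28 (SE, with adjusted p 0.643) between ND_B12 and ND_C. Cdk1 lies on chromosome 10 and overlaps Ank3, which is read from the opposite strand, and Gm47211 on its own strand.

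Ccnb1 encodes cyclin B1, the partner of Cdk1. It read 46.9, 42.7, 47.6 and 46.1 in ND_C and 37.1, 15.9, 33.6 and 22.2 in ND_B12, against 22.9, 76.1, 48.0 and 77.3 in D_C and 85.3, 88.9, 69.9 and 53.4 in D_B12. The order of the groups was that of Cdk1, with all ND_B12 libraries below all ND_C libraries and D_C 1 among ND_B12. Between D_B12 and ND_B12 the log2 fold change was 1.46 ± 0.34 (SE, with adjusted p 0.0537), and it was -0.76 ± 0.34 (SE, with adjusted p 0.642) between ND_B12 and ND_C.

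Prc1, which crosslinks microtubules of the midzone, read 127, 118, 148 and 159 in ND_C and 115, 92.3, 89.5 and 58.0 in ND_B12, against 94.0, 146, 174 and 147 in D_C and 178, 233, 133 and 159 in D_B12. Its ND_B12 libraries again lay below those of ND_C and D_B12. Its log2 change was 0.99 ± 0.23 (SE, with adjusted p 0.0535) between D_B12 and ND_B12 and -0.64 ± 0.23 (SE, with adjusted p 0.588) between ND_B12 and ND_C.

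Mki67 encodes Ki-67, the surface layer of mitotic chromosomes and a common proliferation marker. Its counts were 593, 529, 478 and 450 in ND_C and 508, 267, 311 and 385 in ND_B12, against 307, 495, 582 and 581 in D_C and 638, 888, 571 and 694 in D_B12. The 4 libraries of 28 August were the 4 lowest, and all D_B12 libraries exceeded all ND_B12 libraries. In log2 units the difference was 0.92 ± 0.21 (SE, with adjusted p 0.0537) between D_B12 and ND_B12, -0.47 ± 0.21 (SE, with adjusted p 0.637) between ND_B12 and ND_C, and 0.51 ± 0.21 (SE, with adjusted p 0.300) between D_B12 and D_C. Between ND_B12 and ND_C it was -0.01 without the libraries of 28 August. For Cdk1, Prc1, Mki67 and Ccnb1 the adjusted p for D_B12 against ND_B12 ran from 0.0236 to 0.173 with single libraries left out. Over all alternatives it was lowest in DESeq2 for all 4 genes, from 0.00167 to 0.00379. It was highest for Cdk1, Prc1 and Ccnb1 without the libraries of 28 August, which leaves ND_B12 1 alone in its group. Mki67 had its highest value, 0.508, once the edgeR fit also held the date, which runs nearly in the order of the groups.

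Ccna2, the cyclin of S phase and G2, separated the diabetic groups. It read 94.0, 173, 198 and 202 in D_C and 264, 281, 213 and 231 in D_B12, with 175, 154, 220 and 183 in ND_C and 187, 109, 133 and 118 in ND_B12. All D_B12 libraries exceeded all D_C and all ND_B12 libraries. On the log2 scale the difference was 0.57 ± 0.22 (SE, with adjusted p 0.258) between D_B12 and D_C, and 0.39 (adjusted p 0.300) without D_C 1.

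Birc5, the survivin gene of the chromosomal passenger complex, read 61.9, 67.6, 61.2 and 48.0 in ND_C and 38.2, 37.7, 48.5 and 23.2 in ND_B12, against 54.2, 84.6, 66.7 and 35.2 in D_C and 55.2, 69.8, 68.0 and 57.1 in D_B12. Between ND_B12 and ND_C the log2 fold change was -0.69 ± 0.26 (SE, with adjusted p 0.602), and ND_B12 3 overlapped ND_C 4. Bub1 read 26.7, 26.8, 49.8 and 23.0 in ND_C and 26.2, 10.9, 0 and 14.5 in ND_B12, a log2 fold change of -1.26 ± 0.54 (SE, with adjusted p 0.637). A count of 0 in ND_B12 3 and under 60 counts elsewhere make Bub1 the least precise member.

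**Figure D3:**
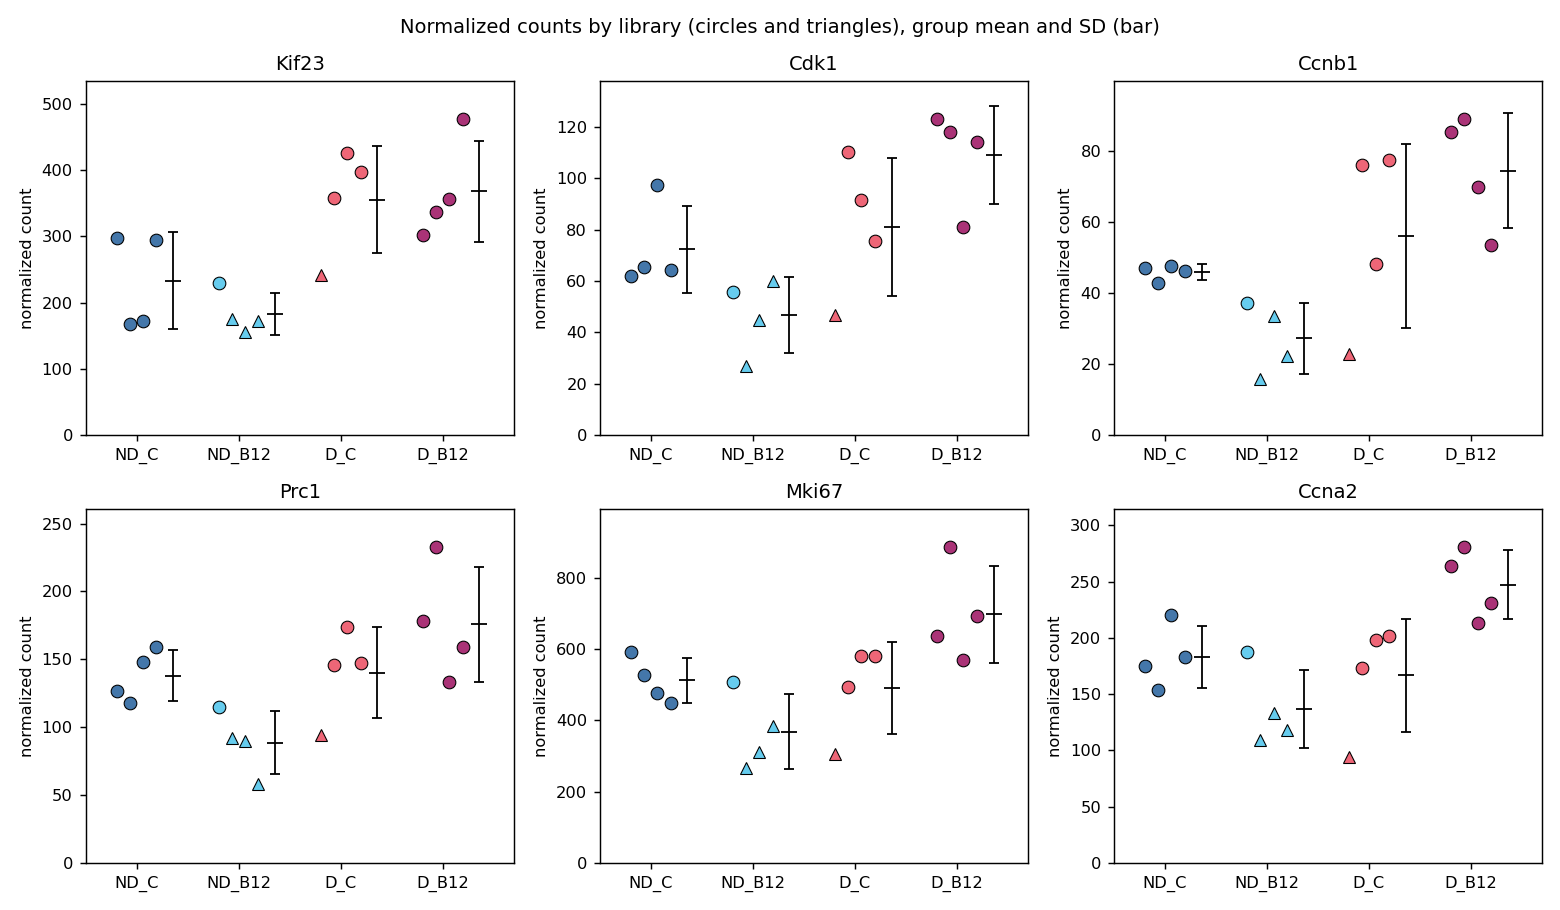
Normalized counts of Kif23, Cdk1, Ccnb1, Prc1, Mki67 and Ccna2 in each library, with the mean and SD of each labelled group of 4 and triangles for libraries with the date of 28 August. D_C 1 is the lowest D_C library in each panel, and ND_B12 2 to 4 lie below ND_C for Cdk1, Ccnb1 and Prc1.

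Wee1 was lowest where most mitosis genes were highest, in D_B12. The gene lies on chromosome 7 from 109721148 to 109747101 and overlaps 1600010M07Rik on the opposite strand. Its normalized counts were 1078, 1550, 1530 and 1755 in ND_C and 1587, 2022, 2112 and 1659 in ND_B12. They were 1977, 2025, 1695 and 1473 in D_C and 1003, 1428, 1281 and 1056 in D_B12. All D_B12 libraries lay below all D_C and all ND_B12 libraries, and ND_C spanned much of the range, with ND_C 1 among D_B12. Its log2 change was -0.63 ± 0.15 (SE, with adjusted p 0.0612) between D_B12 and ND_B12, -0.59 ± 0.15 (SE, with adjusted p 0.124) between D_B12 and D_C, and 0.28 (SE 0.15) between D_C and ND_C, which did not pass unadjusted. The interaction was -0.91 (SE 0.22) with an edgeR adjusted p of 0.0762 and a DESeq2 adjusted p of 0.00442. With single libraries left out, the edgeR adjusted p of the interaction ran from 0.0519 to 0.163. Between D_B12 and D_C the edgeR adjusted p was 0.405 with the label date as a covariate. The interaction and the D_B12 against ND_B12 difference had their highest adjusted p without the libraries of 28 August, which leaves ND_B12 1 alone. Cdc25b, a phosphatase that opposes Wee1, did not pass unadjusted in any comparison, and its group means lay between 478 and 528. It was named for its role, after its values were seen.

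Mean log2 CPM over the 28 genes from G2 to cytokinesis was 0.617, 0.592, 0.721 and 0.640 in the ND_C libraries and 0.564, 0.091, 0.075 and 0.310 in ND_B12. It was 0.162, 0.802, 0.964 and 0.792 in D_C and 0.747, 1.123, 0.781 and 0.928 in D_B12. The 4 lowest libraries were those of 28 August, labelled ND_B12 and D_C, and D_B12 2 was the highest. The study's tabulated means put ND_B12 2, ND_B12 3 and D_C 1 in its treated non-diabetic group, with ND_C 3. Those means put ND_B12 4 in its treated diabetic group. Whether the low level goes with the date or with a group was not tested. The means by group were 0.642 ± 0.056 in ND_C and 0.260 ± 0.229 in ND_B12, against 0.680 ± 0.354 in D_C and 0.895 ± 0.171 in D_B12 (SD, n = 4). For 14 of these 28 genes at least 3 of the 4 lowest libraries were those of 28 August, or 50% of them, against 4.02% of all genes. None of the 18 genes of G1, S phase and nucleotide supply showed this. D_B12 2 held the highest value for 11 of the 28 genes, against 4.09% of all genes for that library. Since the libraries were singled out on these values, these shares are a description.

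**Figure D4:**
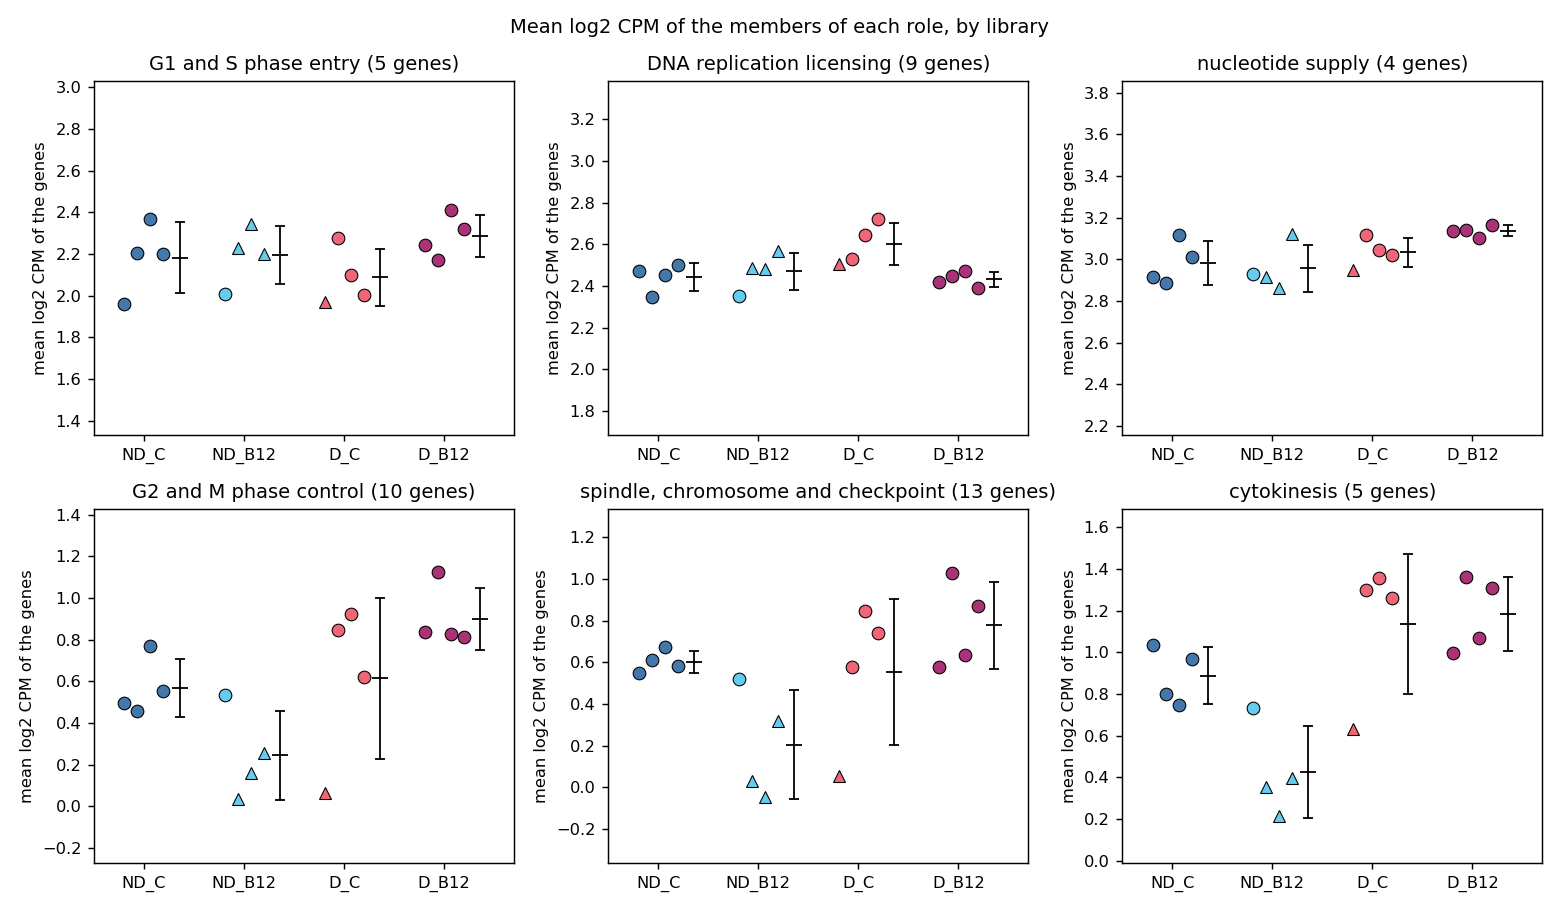
Mean log2 CPM of the members of each role in each library, with group mean and SD of 4 libraries, on axes of the same length and with triangles for the date of 28 August. In the lower panels (G2 and M phase control, spindle and cytokinesis) every triangle lies below every circle of ND_C, which is not so in the upper panels.

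The promoters of the members differed by role. RefSeq promoter windows from 250 bases before to 50 after the gene start, taken from a table of build GRCm38.p6, were matched for 37 members. Those not matched were Aurkb, Ccna2, Ccnd1, Ccne2, Foxm1, Kif20a, Mcm4, Tpx2 and Wee1. The letters TTTGAA, the cell cycle homology region (CHR) bound by the DREAM and MuvB complexes, were sought on both strands. They occurred in 16 of 22 windows of genes from G2 to cytokinesis (72.7%), in 1 of 15 windows of the earlier roles (6.67%) and in 18.1% of 27025 promoters. CCAAT, the core of the NF-Y box, was in 86.4%, 53.3% and 37.9% of them. The E2F motif was taken as TTGGCGC, with TTCGCGC as a variant of it, TTCCCGC as another and TTGCCGC as the last, and was in 13.6% of the windows from G2 to cytokinesis, 53.3% of the earlier ones and 9.69% of all promoters. CACGTG, the E-box that clock factors can bind, was in 4.55%, 13.3% and 7.24%. A match is a run of letters and not a bound site.

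Windows are printed for 4 genes that were among those with the smallest p between D_B12 and ND_B12, and for Cdk20, whose pattern differed. Capitals mark the motifs on either strand, the sequence reads 5′ to 3′ in the direction of the gene, and positions are on GRCm39, where each window matched exactly.
Kif23, chr9:61854032-61854331, minus strand: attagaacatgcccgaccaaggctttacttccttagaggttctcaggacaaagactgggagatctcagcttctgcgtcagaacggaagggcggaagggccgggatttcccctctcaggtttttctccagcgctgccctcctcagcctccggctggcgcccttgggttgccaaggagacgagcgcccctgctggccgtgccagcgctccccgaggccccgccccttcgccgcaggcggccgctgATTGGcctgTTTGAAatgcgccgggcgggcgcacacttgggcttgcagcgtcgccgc
Cdk1, chr10:69188693-69188992, minus strand: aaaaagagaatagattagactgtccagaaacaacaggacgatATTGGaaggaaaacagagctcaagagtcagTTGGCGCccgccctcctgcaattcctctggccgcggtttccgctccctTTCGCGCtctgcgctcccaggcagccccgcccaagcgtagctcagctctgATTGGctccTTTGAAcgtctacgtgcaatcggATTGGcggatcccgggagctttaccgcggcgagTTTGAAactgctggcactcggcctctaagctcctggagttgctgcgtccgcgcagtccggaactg
Prc1, chr7:79943949-79944248, plus strand: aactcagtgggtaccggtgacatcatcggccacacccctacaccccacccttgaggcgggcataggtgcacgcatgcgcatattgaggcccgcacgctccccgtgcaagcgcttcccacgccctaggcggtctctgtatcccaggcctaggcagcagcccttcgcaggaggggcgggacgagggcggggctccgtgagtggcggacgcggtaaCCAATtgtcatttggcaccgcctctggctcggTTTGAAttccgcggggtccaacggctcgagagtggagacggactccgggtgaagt
Ccnb1, chr13:100922945-100923244, minus strand: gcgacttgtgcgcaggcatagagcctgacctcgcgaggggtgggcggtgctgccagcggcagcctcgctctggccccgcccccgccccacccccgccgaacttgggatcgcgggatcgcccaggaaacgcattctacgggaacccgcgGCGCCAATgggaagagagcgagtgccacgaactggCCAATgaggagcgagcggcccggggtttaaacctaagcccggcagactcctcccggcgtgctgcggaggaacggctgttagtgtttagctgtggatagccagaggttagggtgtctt
Cdk20, chr13:64580117-64580416, plus strand: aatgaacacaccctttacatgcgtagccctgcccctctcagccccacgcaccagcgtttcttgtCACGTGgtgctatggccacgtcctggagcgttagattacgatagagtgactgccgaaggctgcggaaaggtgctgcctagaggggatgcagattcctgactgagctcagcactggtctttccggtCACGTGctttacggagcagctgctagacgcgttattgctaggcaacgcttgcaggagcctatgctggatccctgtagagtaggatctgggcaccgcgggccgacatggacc
Kif23, Cdk1 and Prc1 carry TTTGAA together with CCAAT, which reads ATTGG on the other strand. Cdk1 also holds 2 of the E2F motifs. Ccnb1 has CCAAT at 2 places, the first overlapping an E2F motif, and no TTTGAA in this window. Cdk20 has CACGTG at 2 places and none of the other motifs.

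**Figure D5:**
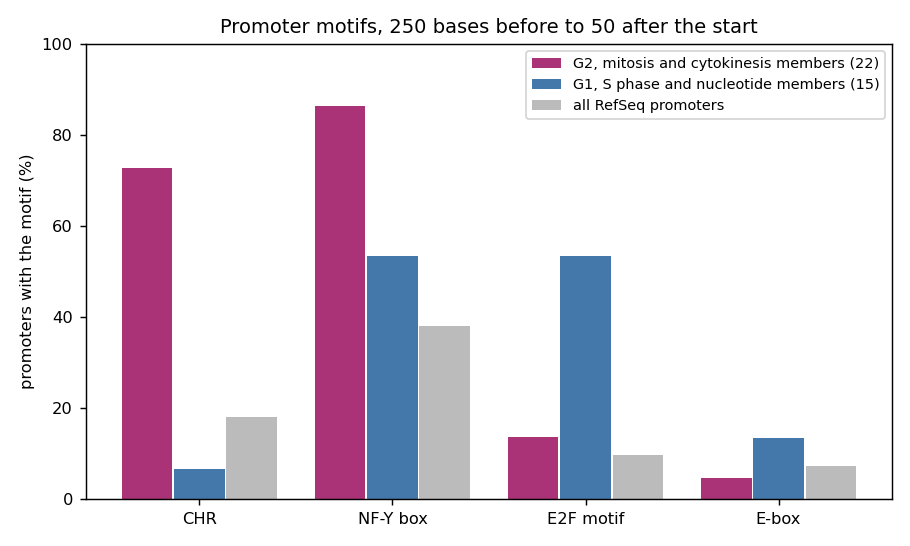
Share of RefSeq promoter windows holding each motif on either strand, for members from G2 to cytokinesis (22 windows), members of the earlier roles (15 windows) and all promoters (27025). The CHR bar is 72.7% for the first group, 6.67% for the second and 18.1% for all.

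Other genes of the same processes were read from lists of genes that are no members. Of 34 other mitosis genes, 14 passed unadjusted as higher and 1 as lower in D_B12 against ND_B12, where 7.79% and 9.2% of all genes did, with a median log2 fold change of 0.49. Iqgap3, a scaffold of dividing cells, had a log2 fold change of 1.00 (adjusted p 0.0537) and Hmmr, a spindle protein, 1.27 (adjusted p 0.0843). In ND_B12 against ND_C, 30 of the 34 had a negative estimate, where 50.4% of all genes had a positive one. Only Sgo1, the centromere protector, passed unadjusted, as lower, where 3.95% of all genes did. None of the 34 passed after adjustment in edgeR in any comparison. Of 32 other S phase genes, 3 passed as higher and 2 as lower in the same comparison, near the shares of all genes. Of 13 other G1 and CDK genes, 1 passed unadjusted in D_B12 against ND_B12, Pkmyt1, a relative of Wee1, with 0.57 (adjusted p 0.236). That is near the 7.79% of all genes that passed as higher.

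Inhibitors of the cycle were followed as well. Of 14 tested CDK inhibitors and p53 targets, 7 passed unadjusted as higher and 1 as lower in the diabetes average, where 8.84% and 10.5% of all genes did, and Cdkn2a was under the count minimum. Phlda3, a p53 target, had a log2 fold change of 0.72 (adjusted p 0.0190) and Eda2r, a receptor gene induced by p53, of 1.13 (adjusted p 0.0357). Cdkn1a, which encodes p21, read 1791, 1946, 2294 and 1337 in D_B12 and 606, 324, 254 and 987 in ND_B12 with no overlap, which gave a log2 fold change of 1.76 ± 0.45 (SE, with adjusted p 0.0703). In D_C the values were 281, 1353, 865 and 850, and D_C 1 was again the lowest of its group. Among 18 genes of the Rb, E2f and DREAM family, Rb1, the retinoblastoma gene, passed after adjustment in the average with 0.22 (adjusted p 0.0275).

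Wee1 is also an output of the circadian clock, and 14 clock genes were set beside it. In D_B12 against D_C, 9 passed unadjusted as lower and 3 as higher, where 7.21% and 6.44% of all genes did, with a median log2 fold change of -0.42 and none past adjustment in edgeR. Cry1, a clock repressor, read 546, 389, 278 and 357 in D_C and 221, 228, 245 and 149 in D_B12, or on the log2 scale -0.89 ± 0.25 (SE, with adjusted p 0.140). Its interaction was -1.57 ± 0.35 (SE, with adjusted p 0.0672), of the same sign as that of Wee1. The clock list was chosen with these data known, and the place of Wee1 beside it is a description.

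Summed markers of other cell types also differed between libraries. Summed macrophage markers (7 of 7 detected) were 79.8 to 95.4 CPM in ND_C and 58.3 to 86.2 in ND_B12, against 65.0 to 80.2 in D_C and 56.9 to 61.6 in D_B12. B and plasma cell markers summed to 12.5 to 46.2 CPM in ND_C and 10.2 to 33.4 in ND_B12, against 4.36 to 12.7 in D_C and 4.62 to 5.75 in D_B12. T cell markers summed to 3.81 to 8.21 CPM in ND_C and 2.83 to 4.28 in D_B12. All 3 lists were thus lowest in D_B12 at the median, where the mitosis genes were highest, and their part in the results was not tested. Tubular injury markers were 248 to 406 CPM in ND_C and 282 to 436 in ND_B12, against 308 to 516 in D_C and 351 to 465 in D_B12, with overlap throughout. Kidney markers themselves (9 of 9 detected) were 12000 to 12400 CPM in D_B12 and 14300 to 15300 in ND_B12, without overlap. Erythroid markers (6 of 7 detected) ran from 207 to 361 CPM and adipocyte markers (5 of 5) from 3.15 to 149 CPM over all libraries, with overlap between groups. All 4 skeletal muscle markers were under the count minimum, as were 3 of 4 adrenal markers and 5 of 7 neutrophil markers.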

How the data were processed

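Total RNA of 16 kidneys was sequenced as paired-end reads, 4 per labelled group. The deposited values are estimated counts per gene and per transcript: per the methods, the authors demultiplexed with bcl2fastq 2.20.0, aligned to GRCm39 with STAR, and quantified with StringTie and its prepDE script. They are whole numbers, were used as deposited, and whether counting used strand is not given in the sources used here. No fold change or p-value was taken from the authors' own tables. Their tabulated group means were used to place libraries, and so to choose the 4 placed apart. For each group, the 1820 possible sets of 4 libraries were compared with the tabulated means over 175 genes. The set with the smallest median difference was taken.

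A gene entered the tests if its counts summed to 100 or more (25408 of 57186). All 16 libraries were fitted together by group in edgeR 4.0.16 (R 4.3.3) with TMM scaling and the quasi-likelihood test, with 12 residual degrees of freedom, and p-values were adjusted by Benjamini-Hochberg over all genes kept, at 0.05. DESeq2 1.42.0 was an alternative. The fit was tested on simulated data. For display, a library's counts were scaled by its median-of-ratios size factor (normalized counts). CPM on the log2 scale used a prior count of 2. Tables were joined with Python 3.11.15 and pandas 2.3.3. The labels call the libraries biological replicates. Replicate numbers did not pair libraries: the correlation of deviations between libraries with the same number ran from -0.183 to 0.168, with 3 of 24 over 0.1.

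Wee1, Cdk20 and, for each of the first 4 comparisons, the 5 members with the smallest unadjusted p below 0.05 were named with every library's value, as were the highest member per length of each role and up to 3 genes per other list and comparison. The members, gene lists and tests were chosen with earlier results of these data known. Alternatives were other scalings, filters, the label date or the replicate number in the fit, the compared groups alone, and leaving out libraries. Single values of some listed genes are not reported here.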

Additional observations from a re-analysis of the deposited data

Results flagged for a closer look

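A library was looked at again where its gap to the nearest other library of its group, divided by the range of the group, exceeded Dixon's critical value. Of 184 sets of 4 libraries (46 members in 4 groups), 11 met this, where chance gives about 1 in 20, or 9.2. In D_C 1 the normalized counts were 33.0 for Ccnb2 (cyclin B2), with 79.1 to 80.8 in the other D_C libraries, 150.0 for Top2a (topoisomerase II alpha), with 271 to 303, and 39.0 for Cdc20, with 118 to 135. All 3 were low in the same library. Cdt1 was high in D_C 3 at 535.0, with 448 to 456 in the others. In ND_C 2, Foxm1, a transcription factor of mitosis genes, was at 87.5 with 105 to 109 in the others, and Bub1b, a spindle checkpoint kinase, at 51.7 with 126 to 142. In ND_C 4, Mcm7 was at 1043.0 with 1261 to 1286 in the others, and Anln, a cytokinesis scaffold, at 110.0 with 130 to 134. Cdk1 was high in ND_C 3 at 97.4, with 61.9 to 65.6 in the others. In the D_B12 group, E2f1 was low in library 1 at 233.0, with 277 to 283 in the others, and Aurkb, a mitotic kinase, was low in library 2 at 41.7, with 56.2 to 59.5.

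Of 32 sets of role means, 2 met the same criterion. The mean log2 CPM of the genes of G2 and M phase control was 1.125 in D_B12 2 and 0.813 to 0.839 in the other D_B12 libraries. That of the cytokinesis genes was 0.633 in D_C 1 and 1.259 to 1.355 in the other D_C libraries.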

How the results depend on the processing

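Counts below are of members at an unadjusted p below 0.05 and of all genes after adjustment, and the comparisons are named D_C-ND_C, D_B12-ND_B12, ND_B12-ND_C, D_B12-D_C, the diabetes average, the B12 average and the interaction. The edgeR counts of genes in that order were 423, 209, 0, 0, 767, 0 and 0. DESeq2 called 1637, 1189, 6, 670, 1837, 6 and 943 genes. With no filter beyond 1 count, genes in D_C-ND_C, D_B12-ND_B12 and the diabetes average were 63, 35 and 427. Upper-quartile scaling left 18 genes in D_B12-ND_B12, and the compared groups alone gave 182 in D_C-ND_C and 1 in D_B12-D_C. With the label date as a covariate, genes were 2 in D_C-ND_C, 29 in D_B12-ND_B12, 204 in D_B12-D_C, 0 in the diabetes average and 753 in the interaction, and members were 1, 3 and 2 in the first 3 of these, 1 in the diabetes average and 5 in the B12 average. With the replicate block, genes were 269 in D_C-ND_C, 25 in D_B12-ND_B12, 478 in the diabetes average and 147 in the interaction, and 5 members passed in ND_B12-ND_C. The numbers did not pair the libraries, and 5 of 16 libraries correlated best with their own number. For the date and the block, the share of all genes at the unadjusted threshold was not computed, so these member counts stand without it.

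Both following settings were chosen after seeing the data. Without the libraries of 28 August, genes were 1630 in D_C-ND_C, 10 in D_B12-ND_B12, 2 in ND_B12-ND_C, 87 in D_B12-D_C and 1 in the interaction, and members 13, 6 and 0 in the first 3 and 1 in the interaction. ND_B12 1 alone was then assumed to vary like the other groups. Without the libraries placed apart, genes were 1323 in D_C-ND_C, 364 in D_B12-ND_B12, 119 in D_B12-D_C, 1601 in the diabetes average and 8 in the interaction, and members 12 in D_C-ND_C, 17 in ND_B12-ND_C and 7 in the B12 average.

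Leaving out each library in turn gave, for all genes, 0 (without ND_C 2) to 1551 (without D_C 1) in D_C-ND_C, 0 (without ND_B12 2) to 438 in D_B12-ND_B12, 0 to 2 in ND_B12-ND_C, 0 to 67 (without D_C 1) in D_B12-D_C, 225 (without ND_B12 2) to 1687 (without D_C 1) in the diabetes average and 0 to 265 (without D_C 1) in the interaction. Members ranged over 3 to 9, 17 to 23, 2 to 17, 3 to 9, 10 to 21, 2 to 5 and 11 to 16 in the 7 comparisons. After adjustment in D_B12-ND_B12, edgeR called 8 members of 408 genes without D_C 1 and 6 of 438 without D_C 2. With any other single library left out it called 1 member at most. Without the libraries placed apart it called 10 members of 364 genes. The unadjusted share of all genes moved as well. In D_B12-ND_B12 the members stood at 37% against 13.1% of all genes without ND_B12 2, and at 50% against 18.2% without D_C 1. In ND_B12-ND_C they stood at 4.35% against 6.27% without ND_B12 2, and at 37% against 9.62% without ND_B12 1. Without D_C 1 they stood at 19.6% against 23.2% in D_C-ND_C and at 10.9% against 16% in D_B12-D_C. That fit gave 45.7% against 22.1% in the diabetes average and 34.8% against 19% in the interaction. In the B12 average they stood at 10.9% against 5.47% without ND_B12 1. With any library but D_C 1, ND_B12 1 and ND_B12 2 left out singly, the share was not computed.

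Of 800 values for 31 named genes and comparisons, 747 kept their direction and side of the threshold, 26 passed it anew, 22 no longer passed and 5 changed sign. These 5 were all of Cdk20, in D_B12-ND_B12 (-0.1121 to 0.07821 with one library left out, -0.1575 without the libraries of 28 August, -0.08881 without those placed apart) and in the diabetes average (0.08242 with the label date). Kif23 in D_B12-ND_B12 was not called with median-of-ratios scaling, upper-quartile scaling, no filter, the block, the date, without the libraries of 28 August, or in 14 of the 16 fits without a single library, at adjusted p from 0.0512 to 0.926 over these. The D_B12-ND_B12 difference in mean level from G2 to cytokinesis, 0.635, was 1.24 with each gene scaled to its SD. The cause of these changes was not tested. Counting depth limits the rarest members, such as Bub1, most.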
